A study of Tachysurus vachellii and Tachysurus fulvidraco x Tachysurus vachelli and Tachysurus fulvidraco with 9 samples.

Results

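Among 728 distinct small RNA sequences measured in catfish liver, 196 were predicted candidate miRNAs with no known name, recognised by a table name that begins with PC-5p or PC-3p. The remaining 532 sequences carried the name of a known miRNA or of a known precursor. Each sequence was counted once by its first entry, and all but 4 candidates had a single entry. The 4 were PC-5p-5068_398, PC-3p-23565_106, PC-3p-43647_46 and PC-5p-101109_9. Reads may be divided between their 2 entries, so their levels may be understated. The names assigned 89 candidates to the 5p arm and 107 to the 3p arm of a predicted hairpin.

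The livers came from juveniles of 3 lines, with 3 libraries in each line: the hybrid Huangyou-1, from P. fulvidraco mothers and P. vachelli fathers, and the pure lines P. vachelli and P. fulvidraco. The title names heterosis of the hybrid as the question, so the hybrid was set against each parent and P. vachelli against P. fulvidraco. All lines were hatched at 28 °C and fed on Artemia, and 600 juveniles of each were reared in 3 aquaria with 200 fish in 700 L. Whether a library was made from a single fish, an aquarium or a pool is not stated in the labels, so p-values measure only the spread between these libraries, which may be technical.

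miRNAs are cut from hairpin precursors by Drosha and Dicer, which leaves a duplex of a 5p and a 3p strand. One strand is usually kept in the silencing complex and the other is degraded, and the seed near the 5′ end of the kept strand finds target mRNAs. Many miRNA families are shared by all vertebrates, such as miR-122 in liver, while other hairpins are found in few species and tend to be weakly expressed. A PC name marks a strand of a predicted hairpin that was given no known name, and nothing is known here of what any candidate targets.

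Several sequences carried the differences between lines described below. They are given 5′ to 3′ as deposited, with the seed (bases 2 to 8) in capitals. The first group was higher in P. vachelli than in P. fulvidraco, and begins with the most abundant candidate and the partner strand listed beside it.
PC-5p-555_7718: aGGAAAGAgtggacaatagca
PC-3p-56651_29: cTATTGTCcactctgtcctc
PC-5p-3257_591: tTTTAATGactgcaaactgtgc
PC-5p-17897_142: tCTAATAAacttgcaactcagt
PC-3p-46979_41: tTATTTGGtctaagtgaagagc
PC-3p-48402_39: tGTGGTGCattgtgggtaatgt
The next group was higher in P. fulvidraco, and its first pair are the only listed partners that were both abundant enough to be tested.
PC-5p-27278_89: cACCTAAAcccggcccgatatc
PC-3p-32515_72: tATTGGTGcggctttaggtga
PC-5p-30865_77: tAGCAGAAgccacacctaagtc
PC-3p-83304_13: cTGAGGTGtgatttctgcatga
The last are a pair of near-identical candidates, which share a seed.
PC-3p-27330_89: aGGACAGAttcaatgactgcagt
PC-3p-23565_106: aGGACAGAtgcaatgactgcagt
The last pair differed by T10G, with positions counted from 1 at the 5′ end and the base of PC-3p-27330_89 first. None of the tested candidates printed above shared a seed with a sequence of known name.

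Values are normalized counts as deposited, on the authors' scale, and a mature miRNA is read whole, so levels were compared between sequences without dividing by length. The smallest steps between low values placed 1 read at 0.898 to 1.19 normalized counts. Applied to the table total, this gave an estimated 5737446 to 6469189 reads of listed sequences in the hybrid libraries. The estimates were 7076459 to 8578508 in P. vachelli and 6336455 to 7425735 in P. fulvidraco. On the same scale, 3 reads corresponded to 2.69 to 3.56 normalized counts. The 5 families taken as hepatocyte markers (miR-122, miR-192, miR-194, miR-148 and miR-101) were all detected, and their cell of origin was not tested. They made up 30.3 to 30.8% of the table total in hybrid, 32.4 to 36.0% in P. vachelli and 32.4 to 33.3% in P. fulvidraco libraries. The erythroid families miR-144 and miR-451 made up 0.921 to 1.57% in hybrid, 0.484 to 0.504% in P. vachelli and 1.15 to 1.46% in P. fulvidraco libraries. Leukocyte and muscle shares were also lower in every P. vachelli library than in any library of the other lines, and the endothelial share was higher, while the smooth muscle and epithelial shares overlapped. The pancreas share was 0.147 to 0.273% in hybrid, 0.0683 to 0.146% in P. vachelli and 0.132 to 0.225% in P. fulvidraco libraries. The neural share was 0.0114 to 0.0131%, 0.00747 to 0.0132% and 0.0142 to 0.0186% in the same order. Every family of these lists was detected except 1 of the 3 epithelial ones. The part of these other cell types in the differences between lines was not tested, and in whole liver fewer cells of a type and less RNA per cell cannot be told apart. P. fulvidraco libraries 2 and 3 stood apart from library 1. They listed 3 sequences named for mammalian miRNAs that were at 0 in the other 7 libraries: bta-miR-127 at 77.1 and 48.0, mmu-miR-136-3p_R-1 at 16.8 and 16.6, and mmu-miR-434-3p at 15.8 and 17.6. They also listed the most sequences of known name, 423 each against 374 in library 1, and fewer candidates, as given below. The cause of this was not tested. A fit without libraries 2 and 3, which leaves 1 P. fulvidraco library, is described below. The candidates above 0 in library 2 or 3 and at 0 in P. fulvidraco library 1 numbered 24, of which 6 were at 0 in all libraries of the other lines.

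Candidates were a small fraction of the listed sequences' summed level in every line. They summed to 0.00571 to 0.0520% of the table total. The mean level over the 9 libraries ranged from 0.1 to 1402 and had a median of 0.956, against a median of 7.81 for sequences of known name. It was under 1 for 99 candidates, from 1 to under 10 for 85, and at 10 or more for 12. In all, 184 candidates were under 10 in most libraries, and 162 were under 10 in every library.

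Detection was scattered for the weaker candidates. Only 15 of 196 (7.65%) had a value above 0 in all 9 libraries, against 296 of 532 (55.6%) sequences of known name, and 42 candidates were seen in a single library. Candidates above 0 numbered 98, 107 and 106 in the hybrid libraries, 77 to 104 in P. vachelli, and 88, 66 and 69 in P. fulvidraco. All hybrid libraries held more candidates than any P. fulvidraco library, whereas the P. vachelli counts overlapped both other lines. The hybrid averaged 104 ± 4.93 and P. fulvidraco 74.3 ± 11.9 candidates (SD, n = 3 each; exact two-sided permutation p = 0.1, adjusted 0.3 over 3 comparisons). That p of 0.1 is the smallest that 3 libraries against 3 can give. P. vachelli averaged 94 ± 14.8, which gave an exact p = 0.2 against P. fulvidraco, and the hybrid against P. vachelli gave p = 0.5. Of the sequences of known name, 70.5 to 78.2% were detected in hybrid, 69.0 to 71.8% in P. vachelli and 70.3 to 79.5% in P. fulvidraco libraries, with overlap between all lines.

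Raising the detection threshold to 3 estimated reads left 41, 60 and 56 candidates in hybrid, 66, 38 and 57 in P. vachelli, and 49, 24 and 27 in P. fulvidraco libraries. The hybrid libraries then overlapped P. fulvidraco library 1. At this threshold the mean number in the hybrid was 1.33 below that in P. vachelli, a change of sign from 9.67 above it (exact p = 0.9 and 0.5). P. vachelli library 2 had fewer candidates than the other P. vachelli libraries at both thresholds.

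The summed level separated the lines completely. It was 1769, 2223 and 1941 in hybrid, 3216, 4004 and 4042 in P. vachelli, and 557, 358 and 438 in P. fulvidraco libraries. Mean sums were 1978 ± 229, 3754 ± 466 and 450.9 ± 100.4 in the same order (SD, n = 3 each), and each of the 3 comparisons gave an exact two-sided permutation p = 0.1, the smallest possible. A single candidate, PC-5p-555_7718, made up 63.9 to 65.9% of the sum in hybrid and 72.3 to 79.9% in P. vachelli libraries. In P. fulvidraco the leading candidate was PC-3p-32515_72, at 26.5 to 31.7%. The sums without the leading candidate of each library were 603 to 803 in hybrid and 809 to 892 in P. vachelli. In P. fulvidraco they were 263 to 404, and the lines did not overlap on the deposited scale. A different candidate was left out in P. fulvidraco, so its sums are not over the same candidates. With PC-5p-555_7718 left out of every library, the difference in mean sum was -148.237 for the hybrid minus P. vachelli. It was 240.423 for the hybrid minus P. fulvidraco and 388.66 for P. vachelli minus P. fulvidraco. Each gave an exact two-sided permutation p = 0.1. The sums without each library's leading candidate were also taken as ppm of the table total, a scaling added after seeing the data. They were at least 96.7 ppm in hybrid, 96.8 to 107 in P. vachelli and 42.0 to 60.4 in P. fulvidraco libraries. The hybrid overlapped P. vachelli, with the highest value in hybrid library 2, and the P. fulvidraco values again leave out a different candidate.

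**Figure D1:**
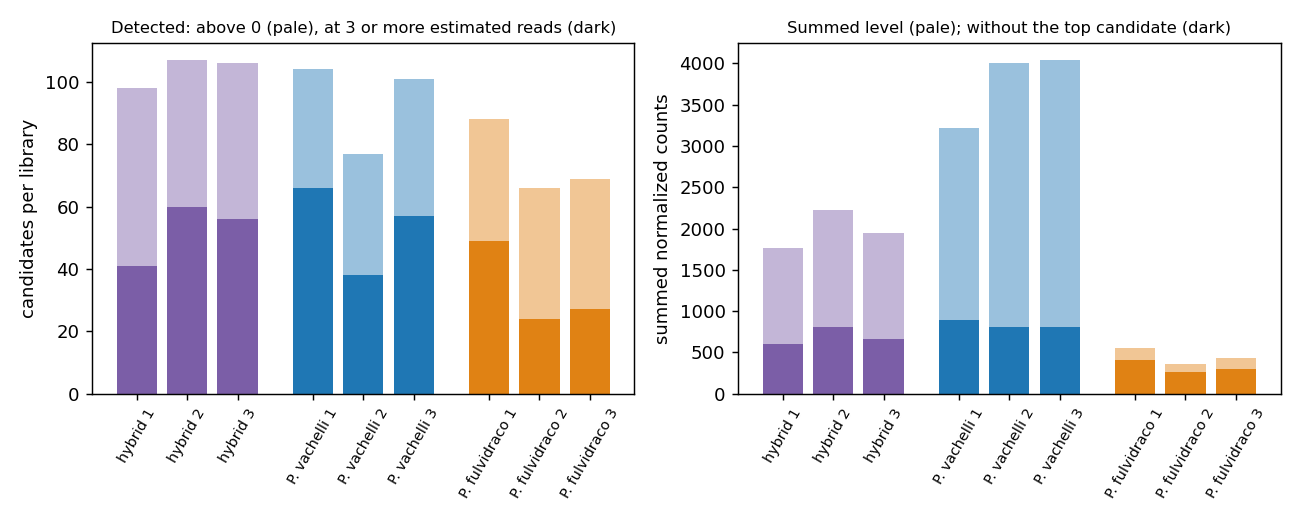
Candidates per library (left axis, number of candidates: pale bars, value above 0; dark bars, 3 or more estimated reads) and their summed normalized counts (right panel: pale bars, all candidates; dark bars, without the leading candidate of that library). P. fulvidraco libraries have the lowest sums, 358 to 557, and P. vachelli libraries the highest, 3216 to 4042. The leading candidate is PC-3p-32515_72 in P. fulvidraco libraries and PC-5p-555_7718 in the others, so the dark bars leave out different candidates.

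Presence varied by line. At least 1 library of the hybrid listed 78.6% of the candidates, at least 1 of P. vachelli 73.0% and at least 1 of P. fulvidraco 57.1%, and 60, 54 and 42 candidates were above 0 in all 3 libraries of those lines. A value in every line was found for 71 candidates. A further 39 were listed in the hybrid and P. vachelli and not in P. fulvidraco, 27 in the hybrid and P. fulvidraco and not in P. vachelli, and 5 in both parents and not in the hybrid. The hybrid alone listed 17, P. vachelli alone 28 and P. fulvidraco alone 9. The matching shares of known names or of all sequences are not given for these counts, so they describe the candidates only. P. fulvidraco libraries 2 and 3, which stood apart, listed fewer candidates (66 and 69) than library 1 (88). A value of 0 in a library allows a level of up to 3 reads, counting error only. A value below 3 reads in 1 library can thus not be told from a 0 in another. The mean over the 9 libraries was less than 1 normalized count for 99 candidates. Some of these still exceeded 3 reads in a single library, such as PC-5p-444424_2 with 5.37 in P. vachelli library 1. Differences in presence were not tested for single candidates.

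Tests between lines were run across the 278 sequences with 10 or more normalized counts in at least 3 libraries, and 16 of the 196 candidates (8.16%) were among them, against 262 of 532 (49.2%) sequences of known name. A candidate that passed only through the line or lines where it is high was favoured to differ from the rest. Of the 16, 12 reached 10 in 2 lines, 1 in a single line and 3 in all lines. At the threshold, the third-highest value was 11.8 for PC-5p-116434_7, just inside, and 9.49 for PC-3p-46690_41, just outside. Differences are given as log2 fold changes of value + 1 with limma's standard error (SE) and Benjamini-Hochberg adjusted p, and a call is an adjusted p under 0.05. The 3 comparisons share libraries, and the counts below describe only the candidates that passed this filter.

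P. vachelli against P. fulvidraco gave the most calls. Of the 278 sequences, 51.4% were called, 30.9% higher and 20.5% lower in P. vachelli. Of the 16 candidates, 14 were called, 10 higher and 4 lower, and their median log2 fold change was 3.35, against -0.05 over all tested sequences. With values listed at 0 set to 3 reads the candidate median was 2.98. None of the 10 called higher reached 10 in any P. fulvidraco library. Of the 4 called lower, PC-5p-27278_89 and PC-5p-30865_77 reached 10 in no P. vachelli library. All of these passed the filter through the other lines, which favours such differences, so the counts and the median are descriptions. The same limit applies to the candidates called higher in the hybrid than in P. fulvidraco, all of which are among these 10. The hybrid against P. fulvidraco gave 10 calls, 9 higher and 1 lower, with 19.4% of all sequences called, 12.9% higher and 6.47% lower. Without P. fulvidraco libraries 2 and 3, only 4 of these calls held, those of PC-5p-555_7718, PC-5p-3257_591, PC-5p-17897_142 and PC-3p-46979_41. The hybrid against P. vachelli gave 9 calls, 5 higher and 4 lower, with 34.9% of all sequences called, 15.5% higher and 19.4% lower. Of the 5 called higher, PC-5p-27278_89, PC-5p-30865_77 and PC-3p-40093_53 reached 10 in no P. vachelli library. Of the 4 called lower, PC-3p-48402_39 reached 10 in no hybrid library. The filter favours these differences too, so the counts of this comparison are also descriptions. The median log2 fold change of the tested candidates was 2.20 against P. fulvidraco and -0.46 against P. vachelli, where all tested sequences had medians of 0.06 and -0.01. Scaling the libraries to equal totals moved the median of all sequences to -0.35 for P. vachelli against P. fulvidraco and to 0.34 for the hybrid against P. vachelli. Under that scaling the calls split into 53 higher and 88 lower for P. vachelli against P. fulvidraco, where the deposited values gave 86 higher and 57 lower, and the candidates into 9 higher and 5 lower. For the hybrid against P. vachelli they split into 89 higher and 26 lower, against 43 and 54 as deposited, and the candidates into 5 and 2.

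**Figure D2:**
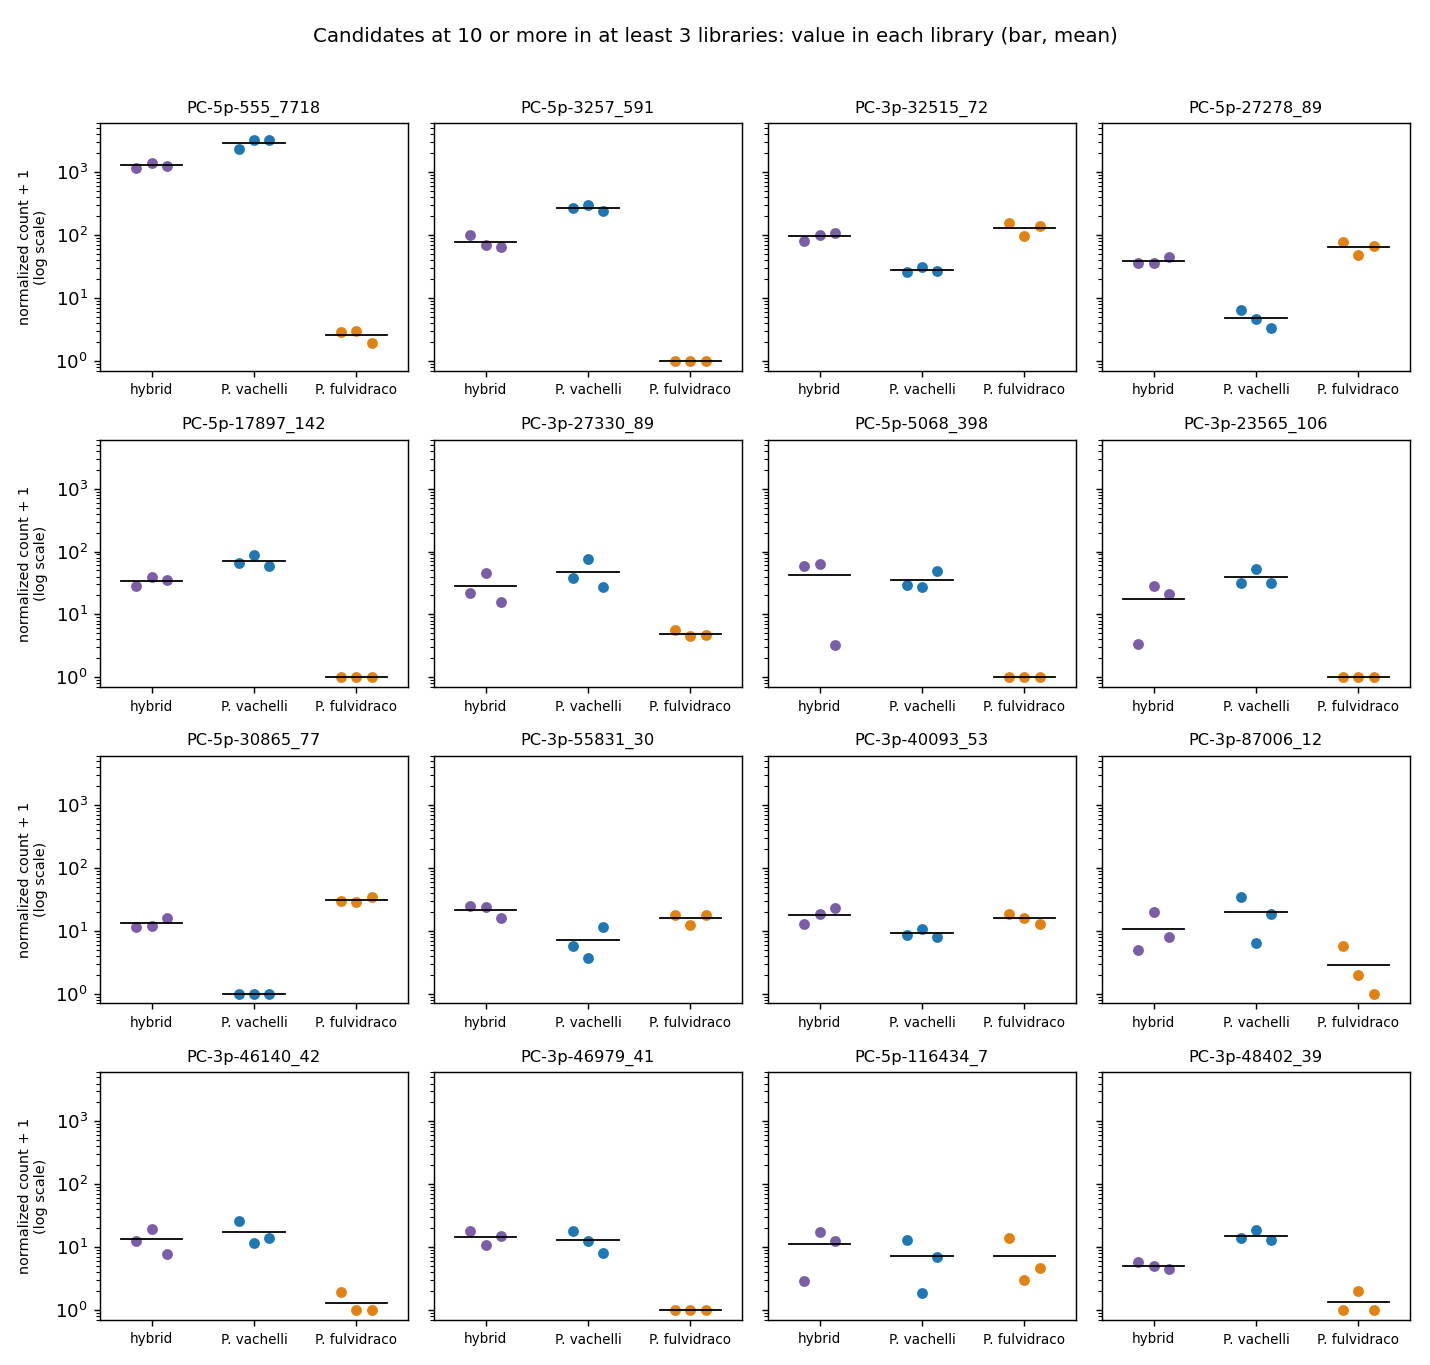
Normalized count + 1 (log axis) of the 16 candidates with 10 or more in at least 3 libraries, 1 point per library and a bar at the mean of each line. PC-5p-555_7718 lies between 1167 and 3229 in the hybrid and P. vachelli libraries and at 1.98 or below in the P. fulvidraco libraries, and PC-5p-30865_77 is listed at 0 in the P. vachelli libraries.

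PC-5p-555_7718 was the most abundant candidate and followed the P. vachelli side. It had 1167, 1419 and 1278 normalized counts in hybrid, 2324, 3195 and 3229 in P. vachelli, and 1.86, 1.98 and 0.92 in P. fulvidraco libraries. The P. fulvidraco values lie below 3 reads, and the 3 lines did not overlap. The log2 fold change of P. vachelli over P. fulvidraco was 10.15 (SE 0.21, adjusted p = 2.77e-10), and it depends on the pseudocount, with 10.48 at 0.5 and 8.78 at 5. The hybrid was higher than P. fulvidraco (8.98, SE 0.21, adjusted p = 8.83e-10) and lower than P. vachelli (-1.17, SE 0.21, adjusted p = 0.00196).

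PC-5p-3257_591 was next in P. vachelli. It had 99.6, 69 and 64.8 in hybrid libraries, 272, 296 and 237 in P. vachelli libraries, and was listed at 0 in all 3 P. fulvidraco libraries. The lines did not overlap. Its fitted log2 fold change was 8.07 for P. vachelli over P. fulvidraco (SE 0.23, adjusted p = 2.69e-09) and -1.79 for the hybrid over P. vachelli (SE 0.23, adjusted p = 0.000356). The first value has no lower line to divide by and depends on the pseudocount (9.06 at 0.5, 5.77 at 5), as do all values against libraries at 0.

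PC-5p-17897_142 showed the same order of lines. It had 27.1, 38.4 and 34.7 in hybrid and 64.5, 88.0 and 58.1 in P. vachelli libraries, and was listed at 0 in P. fulvidraco. The call of the hybrid below P. vachelli (-1.04, SE 0.27, adjusted p = 0.0134) was lost without P. vachelli library 2 (adjusted p = 0.0878) and with equal library totals. PC-3p-46979_41 was also listed at 0 in every P. fulvidraco library, and had 16.9, 9.86 and 13.9 in hybrid and 17.2, 11.7 and 7.12 in P. vachelli libraries. The hybrid and P. vachelli values overlapped, and their difference was not called (0.21, adjusted p = 0.702).

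Both remaining candidates at 0 throughout P. fulvidraco had an uneven hybrid line. PC-5p-5068_398 had 58.5, 62.1 and 2.31 in hybrid and 28.5, 26.0 and 48.6 in P. vachelli libraries. PC-3p-23565_106 had 2.42, 27.6 and 20.2 in hybrid and 31.2, 52.5 and 30.3 in P. vachelli libraries. Hybrid library 3 was low for the first of these and hybrid library 1 for the second. Each candidate has 2 entries in the table, of which the first was used, so the values given may hold only part of its reads. Both were called higher in P. vachelli than in P. fulvidraco (5.09, SE 0.96, adjusted p = 0.0018; 5.24, SE 0.70, adjusted p = 0.000204). Neither was called between the hybrid and P. vachelli, with adjusted p = 0.687 and 0.105.

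Of the candidates that P. fulvidraco listed at low levels, PC-3p-48402_39 had 4.84, 3.94 and 3.47 in hybrid, 12.9, 17.96 and 11.9 in P. vachelli, and 0, 0.99 and 0 in P. fulvidraco libraries. The 3 lines did not overlap. This was the candidate that passed the filter only through P. vachelli, so its difference from P. vachelli is a description, although it is counted among the calls of each comparison. PC-3p-46140_42 had 11.6, 18.7 and 6.94 in hybrid, 24.7, 10.8 and 13.1 in P. vachelli, and 0.93, 0 and 0 in P. fulvidraco libraries. It was called higher in both the hybrid and P. vachelli than in P. fulvidraco (3.33 and 3.70, adjusted p = 0.00201 and 0.000194), and the hybrid overlapped P. vachelli. PC-3p-27330_89 had 21.3, 44.9 and 15.03 in hybrid, 36.5, 75.4 and 26.1 in P. vachelli, and 4.65, 3.46 and 3.69 in P. fulvidraco libraries, so it was listed in every P. fulvidraco library while PC-3p-23565_106, 1 base away, was listed in none. It was called higher in both the hybrid (2.37, SE 0.46, adjusted p = 0.00721) and P. vachelli (3.12, SE 0.46, adjusted p = 0.000393) than in P. fulvidraco. PC-3p-87006_12 varied within lines, with 3.87, 18.7 and 6.94 in hybrid, 33.3, 5.39 and 17.8 in P. vachelli, and 4.65, 0.99 and 0 in P. fulvidraco libraries. Its call of P. vachelli over P. fulvidraco (2.84, SE 0.81, adjusted p = 0.0157) did not hold when P. fulvidraco library 3 was left out (adjusted p = 0.059).

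A smaller group was higher in P. fulvidraco. PC-5p-30865_77 was the mirror image of the candidates above: it had 10.6, 10.8 and 15.03 in hybrid libraries, was listed at 0 in all 3 P. vachelli libraries, and had 28.8, 27.7 and 33.3 in P. fulvidraco libraries. The lines did not overlap. Its log2 fold change was -4.95 for P. vachelli over P. fulvidraco (SE 0.30, adjusted p = 1.77e-06), 3.70 for the hybrid over P. vachelli (SE 0.30, adjusted p = 9.98e-05) and -1.24 for the hybrid over P. fulvidraco (SE 0.30, adjusted p = 0.0165). The last call was lost when hybrid library 2 or any 1 P. fulvidraco library was left out (adjusted p = 0.0529 to 0.0878).

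PC-5p-27278_89 and PC-3p-32515_72 are listed as the 2 arms of a single predicted hairpin. Both had the same order of line means, with larger fold changes for the 5p arm. The 5p arm had 34.8, 35.5 and 43.9 in hybrid, 5.37, 3.59 and 2.37 in P. vachelli, and 77.2, 47.4 and 65.6 in P. fulvidraco libraries. The 3p arm had 80.3, 98.6 and 108.7 in hybrid, 24.7, 30.5 and 26.1 in P. vachelli, and 153.4, 94.9 and 138.5 in P. fulvidraco libraries. For the 5p arm the 3 lines did not overlap, and for the 3p arm the hybrid overlapped P. fulvidraco. Both were called lower in P. vachelli than in P. fulvidraco (-3.77, SE 0.30, adjusted p = 7.72e-06; -2.18, SE 0.22, adjusted p = 3.91e-05). Both were called higher in the hybrid than in P. vachelli (3.07 and 1.78, adjusted p = 0.000154 and 0.000356), and neither was called between the hybrid and P. fulvidraco (-0.70 and -0.41, adjusted p = 0.132 and 0.253).

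The remaining tested candidates differed less between lines. PC-3p-55831_30 had 24.2, 22.7 and 15.03 in hybrid, 4.84, 2.69 and 10.7 in P. vachelli, and 16.7, 11.4 and 16.6 in P. fulvidraco libraries. It was called higher in the hybrid than in P. vachelli (1.75, SE 0.43, adjusted p = 0.00972), and lower in P. vachelli than in P. fulvidraco (-1.31, SE 0.43, adjusted p = 0.0278), a call that was lost without any 1 of P. vachelli libraries 1 and 2 and P. fulvidraco libraries 1 and 3 (adjusted p = 0.0672 to 0.0985). PC-3p-40093_53 had 11.6, 17.7 and 21.97 in hybrid, 7.52, 9.88 and 7.12 in P. vachelli, and 17.7, 14.8 and 12.0 in P. fulvidraco libraries. All hybrid libraries lay above all P. vachelli libraries (0.95, SE 0.31, adjusted p = 0.0373), but the call was lost without any 1 of hybrid libraries 2 and 3, the P. vachelli libraries and P. fulvidraco library 2 (adjusted p = 0.0559 to 0.1003). PC-5p-116434_7, with 1.93, 16.8 and 11.6 in hybrid, 11.8, 0.9 and 5.93 in P. vachelli, and 13.0, 1.98 and 3.69 in P. fulvidraco libraries, was called in none of the comparisons.

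The hybrid lay between its parents for most of these candidates. Of the 14 that differed between the parents, the hybrid mean was between the parental means for 11, and it ranged from 28.7 to 138% of the higher parent with a median of 55.5%. These 14 were picked by the gap between their parents, which makes a hybrid mean in between likely. The share among all sequences called between the parents is not given here, so this count describes only these candidates. PC-5p-555_7718 averaged 1288 ± 127 in the hybrid and 2916 ± 513 in P. vachelli (SD, n = 3 each), so that the hybrid stood at 44.2% of the higher parent. The corresponding share was 47.6% for PC-5p-17897_142, 44.1% for PC-3p-23565_106 and 40.7% for PC-5p-30865_77, the last with P. fulvidraco as the higher parent. PC-5p-3257_591 and PC-3p-48402_39 were lower, at 29.0 and 28.7%, and PC-5p-27278_89 and PC-3p-32515_72 higher, at 60.1 and 74.3%. The hybrid mean exceeded both parents among the called candidates for PC-5p-5068_398, PC-3p-55831_30 and PC-3p-46979_41, at 119, 138 and 113% of the higher parent, and in none of these was the hybrid called above its higher parent. For PC-5p-5068_398 the fitted log2 fold change of the hybrid over P. vachelli had the opposite sign (-0.56, adjusted p = 0.687), with hybrid library 3 at 2.31.

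**Figure D3:**
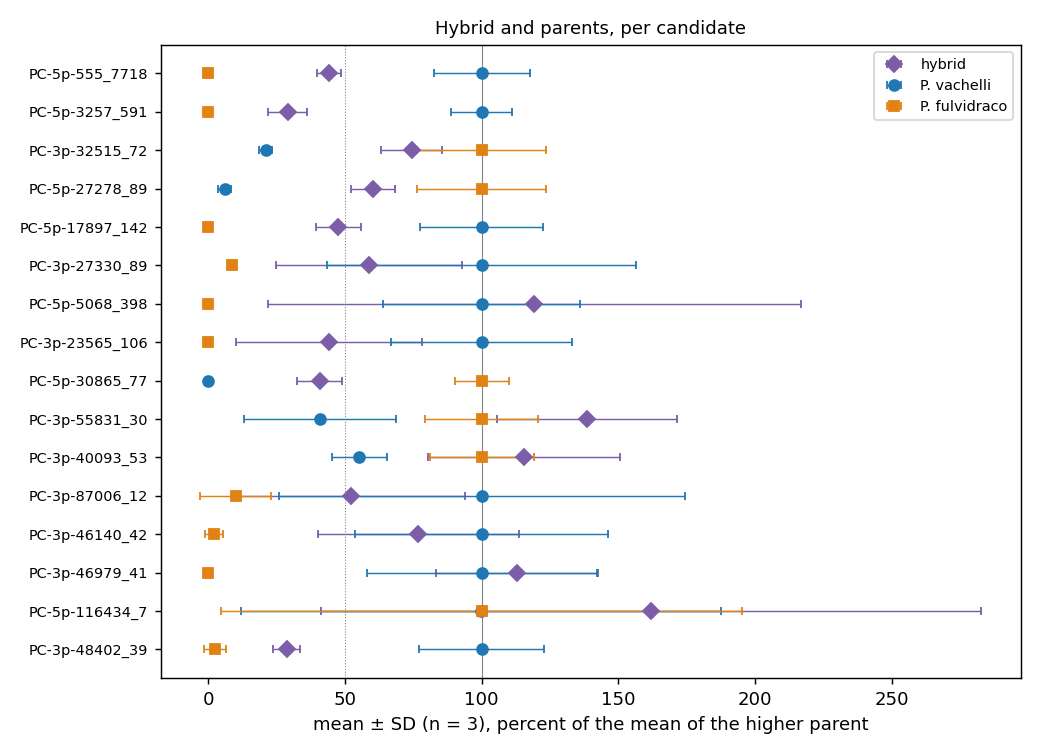
Mean ± SD of each line (n = 3) as a percent of the mean of the higher parent, for the 16 tested candidates, with the solid line at 100 and the dotted line at 50 percent. Diamonds mark the hybrid, which stands at 44.2% for PC-5p-555_7718 and at 74.3% for PC-3p-32515_72.

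Absence throughout a line was listed for a larger share of the candidates than of the sequences of known name. Of the 16 tested candidates, 6 were listed at 0 in all 3 libraries of a line (5 in P. fulvidraco, 1 in P. vachelli), against 0 of 262 tested sequences of known name. These 6 passed the filter only through the lines where they were high, so this count is a description. Over all 196 candidates, 21 were above 0 in all 3 P. vachelli libraries and at 0 in all 3 P. fulvidraco libraries. That is 10.7% of candidates, 0.376% of sequences of known name (2 sequences) and 3.16% of all 728. The reverse, above 0 throughout P. fulvidraco and at 0 throughout P. vachelli, was found for 15 candidates (7.65%, against 0.940% of known names and 2.75% of all). These shares were not matched for level, and the median levels differ as given above.

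Most candidates above 0 throughout 1 parent and at 0 throughout the other had a value in at least 1 hybrid library. Such a value can lie below 3 reads, and 78.6% of all candidates had a value in at least 1 hybrid library. Of the 21 with the P. vachelli pattern, 20 had a value in at least 1 hybrid library and 10 in all 3. All 15 with the P. fulvidraco pattern had a value in the hybrid, 10 of them in all 3 libraries. Only 1 candidate, PC-5p-368610_2, was above 0 in all P. vachelli libraries (2.15, 1.8 and 1.19) and at 0 in all hybrid libraries, a pattern of 0.412% of all sequences. Its values lie below 3 reads, so this absence was not detectable as a difference at this depth. None was above 0 in all P. fulvidraco and at 0 in all hybrid libraries (0.137% of all). From the side of the hybrid, 15 candidates were above 0 in all its libraries and at 0 in P. vachelli (2.2% of all sequences), and 12 were at 0 in P. fulvidraco instead (1.92%). The mean in the listing line exceeded 3 reads for 15 of the 21 candidates at 0 in P. fulvidraco and 9 of the 15 at 0 in P. vachelli, and, with the hybrid as that line, for 8 of the 12 and 6 of the 15.

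Several of these were too weak to be tested. PC-3p-76986_15 had 0.97, 2.96 and 4.63 in hybrid and 15.1, 8.98 and 21.4 in P. vachelli libraries, and 0 in P. fulvidraco. Its listed 5p partner PC-5p-109538_8 had 1.93, 1.97 and 3.47 in hybrid and 7.52, 1.8 and 4.75 in P. vachelli libraries, and was also at 0 in P. fulvidraco. PC-3p-76203_16 had 4.84, 2.96 and 4.63 in hybrid and 6.45, 9.88 and 5.93 in P. vachelli libraries. All 3 sequences were thus present in each hybrid and P. vachelli library. On the deposited scale the first and the last were lower in every hybrid than in any P. vachelli library. For PC-3p-76203_16 the closest values were 4.84 in hybrid library 1 and 5.93 in P. vachelli library 3. In these libraries 1 read was 0.967 and 1.19 normalized counts, so that gap depends on the scaling.

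In the other direction, 3 weak candidates were at 0 throughout P. vachelli with at least 2.9 in every library of the other lines. PC-3p-58124_28 had 5.8, 5.91 and 4.63 in hybrid and 5.58, 5.93 and 17.6 in P. fulvidraco libraries. PC-5p-58481_27 had 2.9, 4.93 and 4.63 in hybrid and 11.2, 10.9 and 6.46 in P. fulvidraco libraries. PC-3p-124958_6 had 11.6, 7.89 and 3.47 in hybrid and 7.44, 2.96 and 11.1 in P. fulvidraco libraries. The hybrid was lower than P. fulvidraco in every library for PC-5p-58481_27 and overlapped it for the other two. The remaining weak candidates with such a pattern had a mean of 0.793 or more in the line that listed them.

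The 5 most abundant untested candidates differed in how far the lines overlapped. PC-3p-80806_14, the highest with a mean of 7.1, had 2.9, 5.91 and 6.94 in hybrid, 11.8, 7.18 and 8.3 in P. vachelli, and 4.65, 6.92 and 9.24 in P. fulvidraco libraries, and P. fulvidraco overlapped both other lines. PC-5p-72035_18 was above 3 in all 9 libraries and reached 8.6. PC-3p-102940_8 had 3.87, 0.99 and 2.31 in hybrid, 20.4, 8.98 and 8.3 in P. vachelli, and 3.72, 0.99 and 0.92 in P. fulvidraco libraries, so that every P. vachelli library lay above every other library. The others were PC-3p-76986_15 and PC-3p-56651_29.

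Many candidates were listed in the table as a 5p entry followed by its 3p entry, an arrangement looked at after the values had been seen. There were 38 such pairs, made up of 72 candidates. Predicted duplexes of the 2 strands held 10 to 20 base pairs with a median of 17, and 37 of 38 held 14 or more. Consecutive 5p and 3p entries outside the paired rows gave 29 combinations with 4 to 12 base pairs, a median of 9, and none with 14. The median predicted energies were -23 and -6.7 kcal/mol. Because PC names come from predicted hairpins, arms of the same hairpin are bound to pair. These values therefore describe how entries were listed and do not test whether the strands form duplexes in the cell.

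The stronger arm was the 5p in 19 pairs and the 3p in 19. PC-5p-555_7718 exceeded its listed partner PC-3p-56651_29 270-fold by the mean of the 9 libraries, and the 2 sequences form 18 predicted base pairs. The partner had 3.87, 5.91 and 9.25 in hybrid and 5.37, 8.08 and 14.2 in P. vachelli libraries, and was at 0 in every P. fulvidraco library. Its values were highest in P. vachelli on average, as were those of the abundant arm, but the hybrid and P. vachelli libraries overlapped.

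This held for each called candidate with a listed partner. Of the 14 candidates called between the parents, 10 had a listed partner, and all 11 distinct partner strands had the higher mean in the same parent as the called candidate, with 6 at 0 in the lower parent. These include PC-5p-27278_89 and PC-3p-32515_72 as each other's partner, and PC-3p-94577_10, contained in PC-3p-43647_46. In P. vachelli, the higher parent, PC-3p-1914158_1, PC-3p-94577_10, PC-5p-101109_9 and PC-3p-137604_5 averaged 0.3, 0.593, 2.04 and 2.21, below 3 reads. PC-5p-101109_9 averaged 1.09 in P. fulvidraco, and its values are those of the first of 2 entries. The share over all listed pairs is not given here, so this count is a description. PC-3p-83304_13, the partner of PC-5p-30865_77, had 2.9, 0.99 and 2.31 in hybrid, 0 in all 3 P. vachelli, and 4.65, 3.95 and 1.85 in P. fulvidraco libraries. PC-5p-77283_15, the partner of PC-3p-55831_30, had 9.19, 5.91 and 4.63 in hybrid, 0, 0.9 and 1.19 in P. vachelli, and 6.51, 10.4 and 1.39 in P. fulvidraco libraries. In both cases every P. vachelli library lay below every library of the other lines, but the closest values were below 3 reads. They were 0 against 0.99 in hybrid library 2 for PC-3p-83304_13. For PC-5p-77283_15 they were 1.19 in P. vachelli library 3 against 1.39 in P. fulvidraco library 3. At the weak end, PC-3p-1914158_1, the partner of PC-5p-3257_591, was listed at 0.9 in 1 P. vachelli library and at 0 elsewhere. Apart from PC-5p-27278_89 and PC-3p-32515_72, none of these partners passed the filter, so no partner difference was tested.

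**Figure D4:**
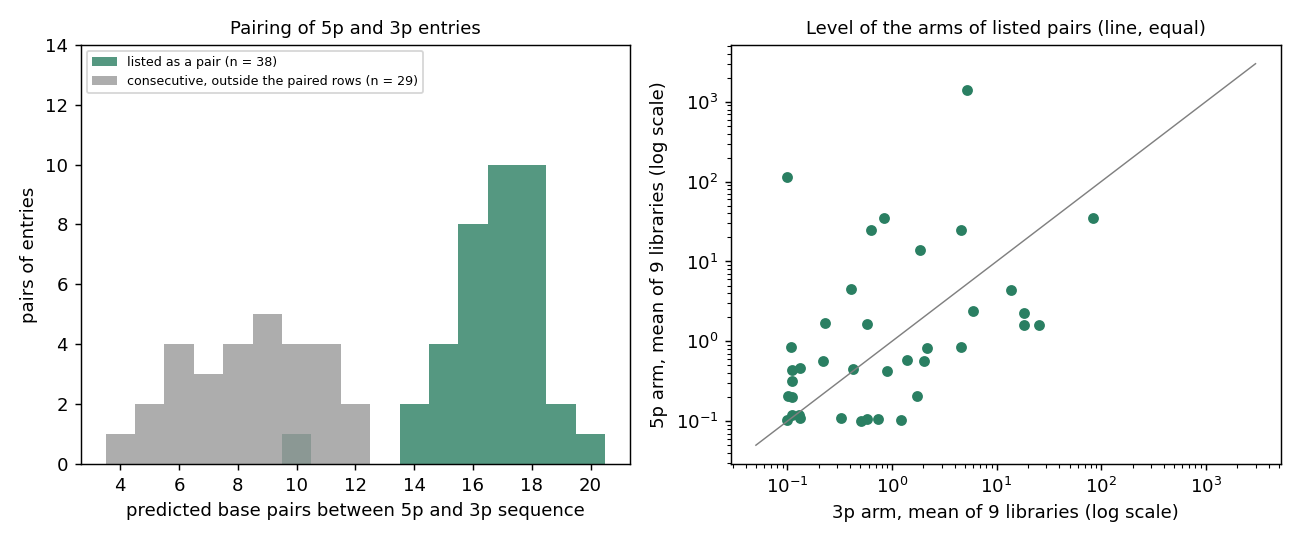
Left, number of pairs of entries by predicted base pairs between a 5p and a 3p sequence, for listed pairs (n = 38) and for consecutive entries outside them (n = 29). Right, mean normalized count of the 5p arm against the 3p arm of each listed pair (log axes; line, equal levels), where 19 pairs lie on each side of the line.

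Few candidates resembled another sequence. PC-3p-40093_53 contained aca-miR-1306_L-3R+2_3ss9GA14TC17TC whole and was 1 base longer, the only candidate within 2 edits of a known name, and that known sequence had 15.5, 10.8 and 11.6 in hybrid, 3.22, 10.8 and 8.3 in P. vachelli, and 25.1, 6.92 and 12.9 in P. fulvidraco libraries. Reads of these 2 sequences, and of the near-identical candidates, may be split between them by the counting. A seed was shared with a known name by 11 candidates (5.61%), among them PC-3p-124958_6 with the miR-146 family, a regulator of inflammatory signalling in mammals, and PC-3p-79316_15 with dre-miR-1788-5p_R+1. The 196 candidates had 189 distinct seeds, with 7 seeds shared by 2 candidates each.

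Near-identical candidates formed 4 pairs. Besides PC-3p-27330_89 and PC-3p-23565_106, which share the listed 5p partner PC-5p-101109_9, PC-5p-5068_398 differed from PC-5p-175456_4 by T22A, with the base of PC-5p-5068_398 first. PC-3p-94577_10 was contained in PC-3p-43647_46, and PC-3p-133405_5 and PC-3p-419504_2 differed by 2 edits. Apart from PC-3p-23565_106 and PC-5p-5068_398, none of the tested candidates at 0 throughout a line had any sequence of the table within 4 edits.

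A few candidates were complementary to each other along most of their length, which was looked at after the values had been seen. PC-5p-5068_398 and PC-3p-153263_4 matched over 20 bases, in capitals here, and are not listed as a pair.
PC-5p-5068_398: ATGACTACCGTCCCATAGCAct
PC-3p-153263_4: TGCTATGGGACGGTAGTCATtc
PC-3p-43647_46, a listed partner of PC-5p-5068_398, was in turn complementary over 21 bases to PC-5p-84551_13, the listed partner of PC-3p-153263_4.
PC-3p-43647_46: TGCTTTGAGAGGCTAGTCATGa
PC-5p-84551_13: CATGACTAGCCTCTCAAAGCAct
Thus both strands of one listed pair were complementary to both strands of another. PC-3p-153263_4 was at 1.61 and 3.56 in P. vachelli libraries 1 and 3 and at 0 elsewhere, and PC-5p-84551_13 had 0.97, 0.99 and 0 in hybrid and 2.15, 5.84 and 4.75 in P. vachelli libraries. These 4 sequences were listed at 0 in P. fulvidraco. PC-5p-175456_4, which shares the same 20 complementary bases with PC-3p-153263_4, was listed there at 1.86, 0 and 0.46. PC-3p-80806_14 was complementary over 18 bases to ipu-mir-24-3-p5, a strand of a miR-24 hairpin.

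Candidates were more spread in length than sequences of known name. They ran from 18 to 26 bases, and 32.7% had 22 bases, against 48.9% of 530 known names without an undetermined base. Lengths of 21 to 23 bases held 63.3% of candidates and 85.1% of known names, and lengths under 21 bases 29.1 and 11.5%. All 16 tested candidates had 21 to 23 bases. The first base was T, common at the 5′ end of miRNAs, in 39.8% of candidates and 43.2% of known names, and G in 16.3 and 10% of them. Median GC content was 47.6 and 45.5%.

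**Figure D5:**
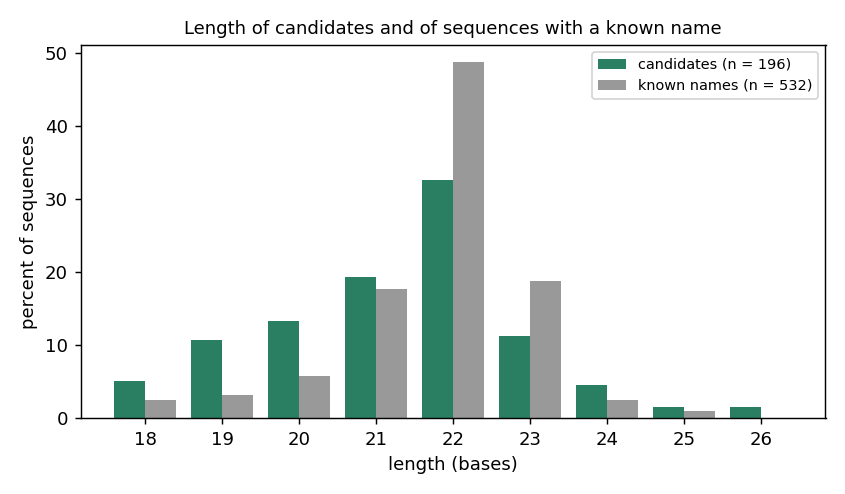
Percent of sequences at each length in bases, for the 196 candidates and all 532 sequences of known name. The candidates are less concentrated at 22 bases and reach 26 bases.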

How the data were processed

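Small RNA libraries of liver from 3 lines (3 libraries each) were made with TruSeq Small RNA kits from about 5 µg of total RNA, per the labels' protocols. Reads were filtered for adapters, low complexity, common RNA families and repeats with ACGT101-miR, per the labels' protocols. The deposited table holds normalized counts (a signal with decimals), as the authors made it. The normalization formula, the aligner and the genome build were not given in the sources used here. The deposited steps gave whole reads for 87.3 to 93.7% of low values (within 0.1 read), which was too few for a count test.

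Of 888 entries, 160 repeats of a sequence were dropped (200 entries were candidates). limma 3.58.1 (R 4.3.3) with a mean-variance trend was fitted on log2(value + 1) to all 9 libraries, over sequences reaching 10 in 3 or more libraries, with Benjamini-Hochberg adjustment within each comparison. The fit was tested on simulated data. Per-library numbers were compared by exact two-sided permutation tests (scipy 1.17.1). Duplexes were predicted with RNAduplex 2.7.2. The candidates and lists were chosen with earlier results of these data known.

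Named candidates were those that passed the filter, those untested and above 0 throughout a line but at 0 throughout another, the 5 highest untested, those sharing a seed or at most 2 edits with another sequence (up to 10), and those at the filter's edge. Weak ones are given by counts. No genome was used, so candidates have no coordinates. Alternatives were other scalings, pseudocounts (0.5 and 5), filters, entry handling, detection thresholds, fits without the trend, of 2 lines or with the replicate number as a block, and each library left out.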

Additional observations from a re-analysis of the deposited data

How the results depend on the processing

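Of the single-candidate results under alternatives, 1021 kept their direction and side of the threshold, 34 lost the call, 8 gained one and 8 changed sign. A call was counted as held where every alternative that tested the candidate kept it. Calls held for 6 of 9 candidates between the hybrid and P. vachelli and 4 of 10 between the hybrid and P. fulvidraco. Between the parents they held for 12 of 14. Among those held, PC-3p-48402_39 was tested in 18 alternatives, and PC-3p-46140_42 and PC-3p-46979_41 in 22, against 23 for the rest. The share held among all sequences is not given here. Testing every sequence called 26 of 196 candidates and 102 of all 728 sequences for the hybrid against P. vachelli. Between the parents it called 43 candidates and 168 sequences in all. With a filter of 5 in 3 libraries, 16 of 32 candidates and 112 of 322 sequences were called for the hybrid against P. vachelli. Between the parents that filter gave 24 candidates and 158 sequences in all. Both settings tested more candidates than the main fit. Without P. fulvidraco libraries 2 and 3 together, chosen after seeing the data, the hybrid against P. fulvidraco had 4 candidate calls and 12 in all (against 54), and the parents 85 in all (against 86 higher and 57 lower), with 1 P. fulvidraco library assumed to vary like the others. Leaving out 1 library gave 6 to 9, 9 to 10 and 11 to 15 candidate calls for the hybrid against P. vachelli, the hybrid against P. fulvidraco and the parents, and 73 to 103, 31 to 59 and 110 or more calls in all. The lowest of these, 31, came without P. fulvidraco library 3. The differences in candidates detected ranged from 1.17 to 14.7, 25.2 to 36.2 and 14.7 to 28.2, and those in summed level from -2046 to -1633, 1404 to 1631 and 3159 to 3572. At 3 estimated reads the hybrid minus P. vachelli difference in detected candidates was -1.33. With equal library totals and without the most abundant candidate, an alternative added after seeing the data, the hybrid minus P. vachelli difference in summed level was 31.95 (exact p = 0.9).

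Changes of sign were all in uncalled results, and the cause was not tested. For the hybrid over P. vachelli leaving out 1 library gave -1.28 to 0.85 for PC-5p-5068_398 (highest without hybrid library 3), -0.12 to 1.43 for PC-5p-116434_7 (lowest without P. vachelli library 2) and -0.092 to 0.49 for PC-3p-46979_41 (lowest without P. vachelli library 3). For the hybrid over P. fulvidraco values were -0.086 for PC-3p-40093_53 and -0.69 for PC-5p-116434_7 without P. fulvidraco libraries 2 and 3, and leaving out 1 library gave -0.027 to 0.41 for PC-3p-40093_53 (lowest without hybrid library 3). Between the parents, leaving out 1 library gave -0.68 to 0.70 for PC-5p-116434_7, above 0 without P. vachelli library 2 (0.70) and without P. fulvidraco library 1 (0.56).

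Same-numbered libraries of different lines had correlations of their deviations from -0.42 to 0.16, with 2 of 9 over 0.1, and 1 of 9 libraries correlated best with one of its own number, so the numbers were not taken as pairs. With the replicate number as a block, candidate calls were 8, 10 and 14 and all calls 82, 42 and 118, in the order above. Depth limits all candidates near 3 reads, and intervals for single reads were not given because the values are normalized.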

Other observations

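Profiles most like that of PC-5p-555_7718 among known names, as a description over 9 libraries that fall into 3 lines, were aca-miR-451-3p_L+2R+1 (Pearson r of log2(value + 1) 0.98), dre-mir-451-p3 (0.98) and ccr-miR-218a_R+1 (0.95). The first had 312 to 411 in hybrid, 327 to 484 in P. vachelli and 40.6 to 56.3 in P. fulvidraco libraries. For dre-mir-451-p3 the values were 318 to 532, 431 to 461 and 44.3 to 69.7. PC-5p-555_7718 had 0.92 to 1.98 in P. fulvidraco, a far larger drop. The erythroid families as a sum went the other way. They made up 0.484 to 0.504% of the table total in P. vachelli and 1.15 to 1.46% in P. fulvidraco. A link to these cells was not tested.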
